A study of Mus musculus with 225 samples.

Results

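The genes described here are the nuclear-encoded genes of oxidative phosphorylation, read in single forelimb cells of mouse embryos at E12.5. They were chosen by name alone, as every gene of the normalized expression table whose symbol begins with *Ndufa*, *Ndufb*, *Ndufc*, *Ndufs*, *Ndufv*, *Uqcr*, *Cox4* to *Cox8* or *Atp5*, or is *Sdha*, *Sdhb*, *Sdhc* or *Sdhd*. This gave 88 of 10948 genes. By their names, 77 of the 88 encode structural subunits, 38 of complex I, 4 of complex II, 8 of complex III, 12 of complex IV and 15 of complex V. The other members were 7 assembly factors of complex I (*Ndufaf1* to *Ndufaf7*), 3 further matches (*Atp5s*, *Atp5sl* and *Cox7a2l*) and 1 pseudogene, *Atp5k-ps2*. A further 7 genes with such names had a row in the raw counts only, and *Atp5l-ps1*, *Atp5l-ps2* and *Atp5l2-ps* among them reached at most 1 read in any cell.

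Oxidative phosphorylation takes place in the inner mitochondrial membrane. Complex I (NADH dehydrogenase) and complex II (succinate dehydrogenase) pass electrons to ubiquinone, complex III passes them on to cytochrome c, and complex IV (cytochrome c oxidase) passes them to oxygen. The proton gradient built by complexes I, III and IV drives complex V, the ATP synthase. Apart from a few core subunits encoded by mitochondrial DNA, all subunits are made from nuclear genes on many chromosomes (the 88 members lay on 19 chromosomes, at most 9 on one) and have to be imported and assembled together. The limb bud is largely mesenchyme, which condenses into cartilage and gives rise to tendon and other connective tissue.

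The cells came from dissociated forelimbs of E12.5 embryos of a mixed strain background (C57Bl6CBAF1), all heterozygous for *Hoxd11::GFP*, an allele with tau-GFP knocked into *Hoxd11*. Cells with bright GFP were sorted and captured singly on a Fluidigm C1 chip, and cDNA was made from their polyadenylated RNA. Of 225 sequenced cells, 199 were retained by the authors, from the autopod (76 cells), where digits form, and from the zeugopod, where the forearm forms. Both tissues carried the same allele and none was treated, so that cells without active *Hoxd11* are under-represented in each. Sequencing run NXT0072 held 59 of the retained autopod cells, NXT0142 held 58 zeugopod cells, and NXT0143 held 17 autopod and 65 zeugopod cells. Embryos were pooled and the labels tie no cell to an embryo. Each tissue is therefore 1 sample without replicates, cells are not replicates of a tissue, and no test between tissues was made.

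Retained cells had between 186271 and 9437447 reads on genes, with medians of 2830024 in autopod and 3233736 in zeugopod cells. At least 2 of 5 limb mesenchyme markers (*Prrx1*, *Prrx2*, *Twist1*, *Tbx5*, *Hoxd11*) had 5 reads or more in 81.6% of autopod and 85.4% of zeugopod cells. *Hoxd11* is also the gene whose GFP was sorted for, and had 5 reads in 67 autopod and 98 zeugopod cells. This criterion is therefore partly set by the sort. No cell met the marker criterion for muscle, epithelium, endothelium, macrophages or blood, although for blood only 1 of 4 markers was in the table, so that its criterion could not be met. Single markers of these classes were still read. At 5 reads or more the muscle marker *Pax7* was found in 1 autopod and 15 zeugopod cells. The macrophage marker *Csf1r* was found in 3 and 17, and the epithelial marker *Epcam* in 2 and 9. Chondrogenic markers marked 35 autopod and 38 zeugopod cells, and tendon markers 17 zeugopod and 0 autopod cells. At least 3 of 4 cell cycle markers were found in 18 autopod and 23 zeugopod cells.

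Subunits of the respiratory chain and the ATP synthase were detected in more cells than most other genes. A member was counted as detected in a cell at 5 reads or more. By this criterion 52 of 88 members (59.1%) were detected in at least 50% of autopod cells and 60 (68.2%) in at least 50% of zeugopod cells, where 11.5% and 13.9% of all 10948 genes reached the same share. All of these were structural subunits, and none of the assembly factors or further matches was among them. Complex I contributed 23 subunits in autopod and 30 in zeugopod cells, complex II 3 and 3, complex III 6 and 7, complex IV 9 and 9, and complex V 11 and 11. A single autopod cell held a median of 45 detected members (range 7 to 73), and a zeugopod cell 53 (range 5 to 73). Within run NXT0143 the medians were 41 and 50. By run, 50 members in autopod NXT0072 (56.8%, background 11.3%), 47 in autopod NXT0143 (53.4%, background 14.2%), 59 in zeugopod NXT0142 (67%, background 16.2%) and 59 in zeugopod NXT0143 (67%, background 12.8%) were detected in at least 50% of cells.

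**Figure D1:**
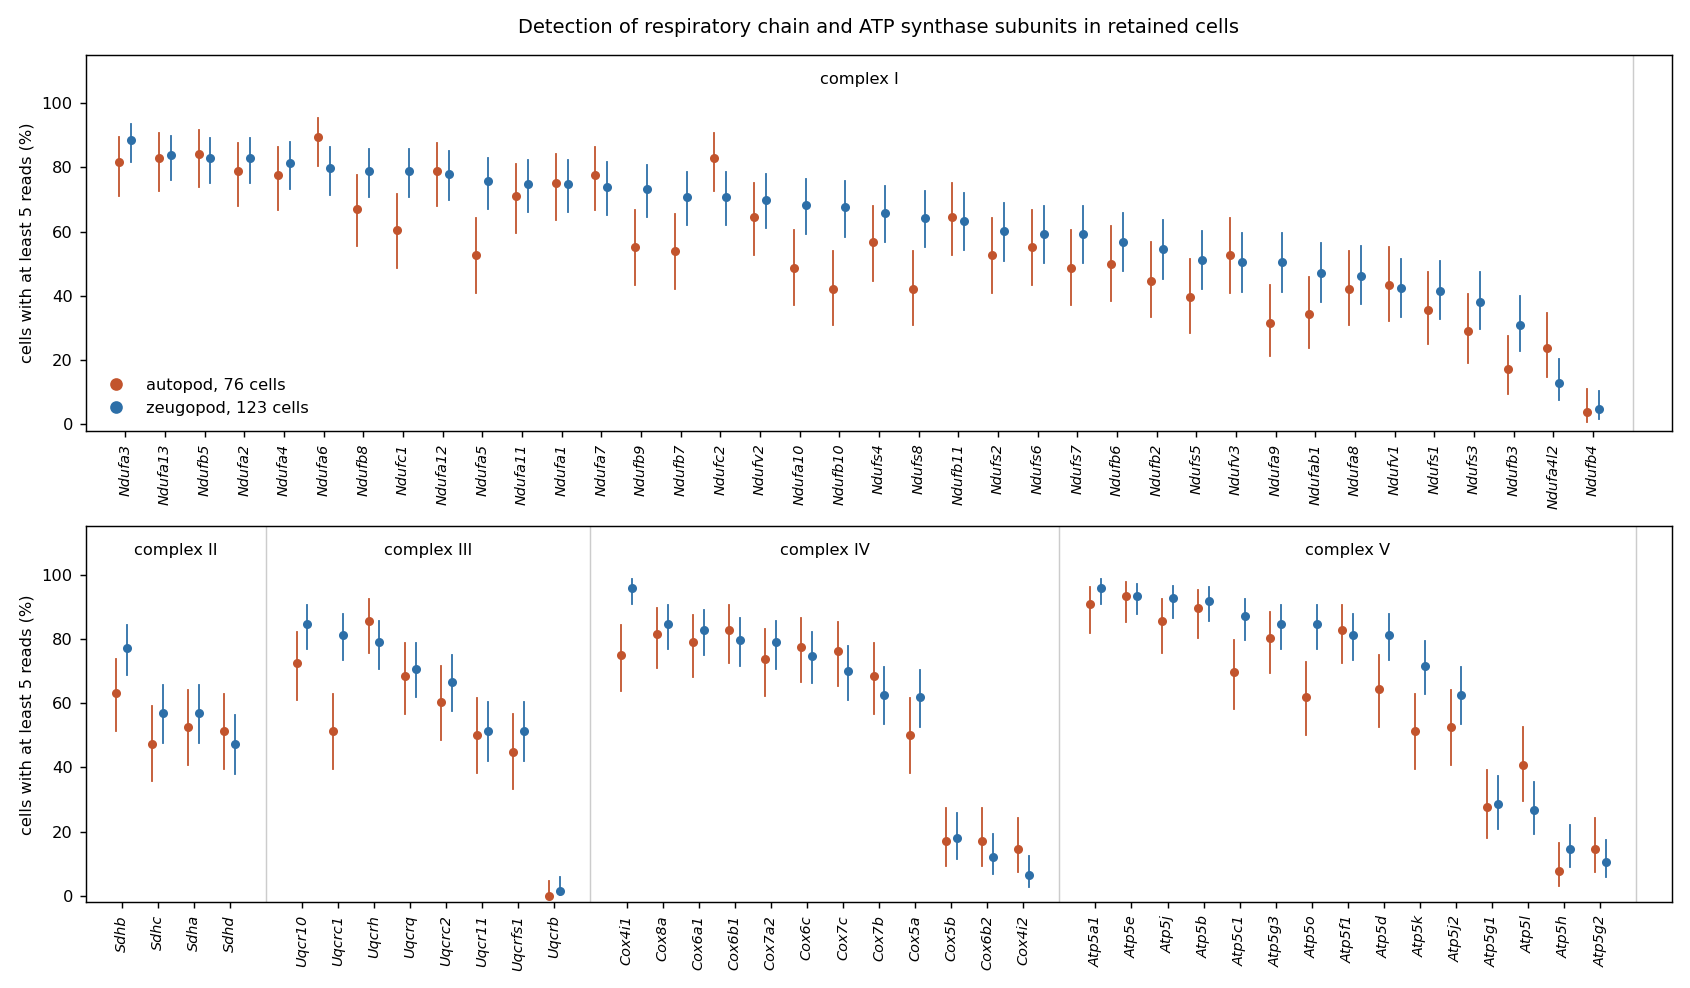
Share of retained cells with at least 5 reads of each structural subunit (y axis, %), by complex, with 76 autopod cells in orange and all retained zeugopod cells in blue. Bars are exact binomial (Clopper-Pearson) 95% intervals and cover counting error only. *Atp5a1*, *Atp5e* and *Atp5b* lie highest, and each complex except II ends in subunits detected in few cells, such as *Ndufb4*, *Uqcrb*, *Cox4i2* and *Atp5g2*.

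The most widely detected members were subunits of the ATP synthase. *Atp5a1*, the alpha subunit, had 5 reads or more in 187 of 199 cells (94%, exact binomial 95% interval 89.7 to 96.8). *Atp5e*, the epsilon subunit, was detected in 93.5% of cells (89.1 to 96.5) and *Atp5b*, the beta subunit that carries the catalytic sites, in 91% (86.1 to 94.6). The neighbours in this order had overlapping intervals. All intervals given for shares of cells cover counting error only. At the other end, the 5 members with a read in the fewest cells were *Ndufaf6* (21 cells), *Atp5s* (22), *Cox4i2* (23), *Atp5k-ps2* (30) and *Cox6b2* (30). *Atp5k-ps2* never exceeded 2 reads, and 0 of 199 cells had 5, which allows a share of up to 1.84% (exact interval).

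Low detection took separate forms. One group of members was read in few cells, but with many reads where it was read at all. *Ndufaf1*, an assembly factor of complex I, had a read in 33 cells with a median of 751 reads in them, *Atp5s* had 162 reads in its 22 cells, *Cox6b2* 148 in its 30 and *Cox4i2* 134 in its 23. Another group had low median counts even in the cells in which it was read. *Uqcrb*, a ubiquinone-binding subunit of complex III, had a median of 1 read in its 41 cells and a highest count of 13. *Ndufb4* of complex I and *Atp5h*, the d subunit of the ATP synthase, had medians of 2 reads, and *Cox5b* of complex IV and *Atp5g2* had medians of 3, although single cells reached 190 reads of *Ndufb4*, 548 of *Atp5h* and 383 of *Cox5b*. *Ndufa4l2* (3 reads in its 120 cells, highest 46), *Atp5sl* (3 in its 84) and *Atp5k-ps2* (1 in its 30) were as low. *Uqcrb*, *Ndufb4*, *Atp5h* and *Cox5b* encode subunits that every copy of their complex contains.

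Some members with few reads, but not all, have near-identical copies elsewhere in the genome. The authors kept only uniquely mapped reads of 75 bases, so a read that fits a second locus equally well would not count. Principal transcripts were compared with all annotated transcripts of genes elsewhere in GRCm38. Of 77 structural subunits, 8 were detected in under 25% of cells. Among these 8, *Uqcrb*, *Ndufb4*, *Atp5h*, *Cox5b* and *Atp5g2* each held stretches of 75 bases that recur unaltered in another gene, covering 29.1%, 35.2%, 36.5%, 17.2% and 86.9% of all 75-base windows of the transcript. *Cox4i2*, *Cox6b2* and *Ndufa4l2*, the remaining ones, had no such window, and neither had *Atp5sl* and *Atp5k-ps2*. Conversely *Ndufaf7*, an assembly factor with 2.39% of its windows shared, had a median of 182 reads in its 39 cells. For each of 4 of these subunits, 1 such stretch of the coding sequence is shown, because it is a piece of the transcript that a read of this length could not place. Each line gives the gene with its GRCm38 position and strand, and every base is identical in the copy, *Gm16089* on chromosome 5 for *Uqcrb*, *Ndufb4c* on chromosome 15 for *Ndufb4*, *Gm10250* on chromosome 15 for *Atp5h* and *Gm11273* on chromosome 13 for *Cox5b*. The first 3 copies are annotated as processed pseudogenes and *Gm11273* as protein coding.
*Uqcrb*, chr13:66901478-66901552, - strand: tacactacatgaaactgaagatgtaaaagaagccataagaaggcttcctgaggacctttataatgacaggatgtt
*Ndufb4*, chr16:37654285-37654359, - strand: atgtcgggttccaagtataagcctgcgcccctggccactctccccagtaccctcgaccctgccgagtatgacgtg
*Atp5h*, chr11:115417861-115417935, - strand: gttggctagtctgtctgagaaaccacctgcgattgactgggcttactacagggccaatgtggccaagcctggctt
*Cox5b*, chr1:36691587-36691661, + strand: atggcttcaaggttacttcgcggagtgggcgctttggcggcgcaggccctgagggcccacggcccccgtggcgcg

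Over all structural subunits, the 20 with at least 1 identical window were detected in a median of 44.5% of cells (range 1.01 to 89.9%), and the 57 without one in a median of 67.8% (range 9.55 to 94%). The ranges overlap widely. *Cox7c*, with 50.4% of its windows shared, was detected in 72.4% of cells, and *Atp5j*, with 1.77%, in 89.9%. *Atp5l*, the g subunit, with 63.4% shared with 9 other genes, was detected in 32.2%. Of the subunits with a copy but no identical window, *Atp5c1* was detected in 80.4% of cells, *Uqcr10* in 79.9%, *Ndufc1* in 71.9%, *Cox7b* in 64.8% and *Atp5k* in 63.8%, around the median of 67.3% for the 52 subunits without a copy. For the 2 most widely detected of them, chosen after their values were seen, a stretch is shown with its copy, as an example of copies that differ, and capitals mark the 3 bases that differ within 75.
*Uqcr10*, chr11:4704232-4704306, - strand: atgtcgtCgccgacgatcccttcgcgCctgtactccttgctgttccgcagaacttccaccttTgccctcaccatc
*Gm6293*, chr19:5415685-5415759, - strand: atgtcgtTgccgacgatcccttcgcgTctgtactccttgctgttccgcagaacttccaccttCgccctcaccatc
*Atp5c1*, chr2:10064213-10064287, - strand: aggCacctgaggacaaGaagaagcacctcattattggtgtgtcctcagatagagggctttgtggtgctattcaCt
*Gm8722*, chrX:77757932-77758006, - strand: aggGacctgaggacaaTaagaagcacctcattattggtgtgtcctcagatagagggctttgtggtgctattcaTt
The part of shared sequence in the low counts was not tested, since only counts of uniquely placed reads were used here.

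**Figure D2:**
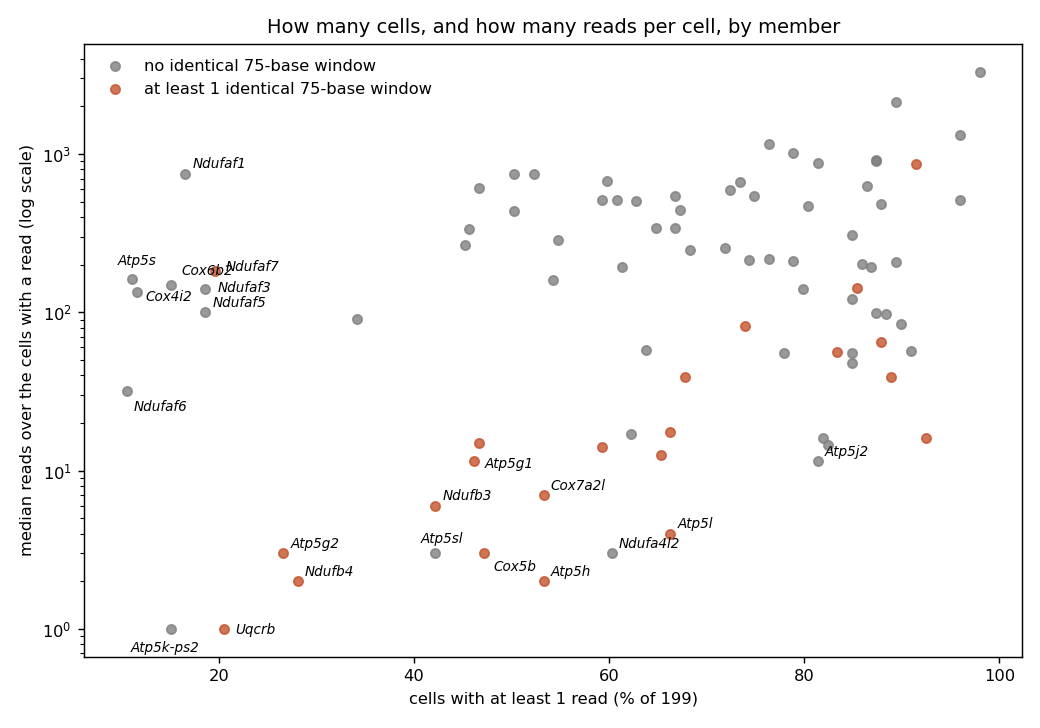
Each point is 1 member, with the share of the 199 retained cells that have at least 1 read (x axis, %) and the median number of reads over those cells (y axis, log scale). Orange points are members with at least 1 identical 75-base window in another gene. *Ndufaf1* lies at upper left, read in few cells with a median of 751 reads, while *Uqcrb* lies at lower left with a median of 1.

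Levels were compared between genes on the authors' normalized value, which is scaled by spike-ins and divided by gene length, so that a gene without reads takes its floor, the inverse of its length in kb. In complex I the accessory subunits *Ndufa2* and *Ndufa6* had the highest medians over all 199 cells, 1000 and 617. Such orders depend on the gene length used, which was inferred here from the normalized values. It far exceeded the principal transcript for some members, such as *Ndufb7* (4.53 kb against 623 bases), but not for *Ndufa2*. By medians per kb of principal transcript and 1000000 reads, *Ndufa6* (264) and *Ndufa2* (254) still led complex I in autopod cells. There *Atp5e* (437) led all members. In zeugopod cells *Ndufa2* (245) and *Ndufb8* (195) led complex I, and *Ndufa6* was not among the 10 highest members. *Ndufa2* had medians of 1367 in the autopod cells of NXT0072 (lowest 1.94, highest 14524), 427 in those of NXT0143 (1.94 to 12617), and 974 and 889 in the zeugopod cells of NXT0142 and NXT0143 (1.94 to 8472 and 1.94 to 4091). In every group some cells lay at the floor and others at 4091 or more, so the spread among cells of a group exceeded any distance between group medians. The lowest median of complex I was that of *Ndufs1*, its largest iron-sulfur subunit, which lay at the floor of 0.131 in all 4 groups even though 39.2% of cells had 5 reads or more. Medians at the floor follow gene length alone and carry no order of expression.

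The subunits of complex II were unequal although they assemble in equal number. *Sdhb*, the iron-sulfur subunit, had a median of 186, against 6.41 for *Sdha*, the flavoprotein, 3.68 for *Sdhc* and 1.55 for *Sdhd*, the membrane anchors. The medians of the last 3 lay near the floor because each was detected in about as many cells as it was missed (55.3%, 53.3% and 48.7% of cells), while their upper quartiles in a group ran from 139 to 1083. For *Sdhd*, the upper quartile in the autopod cells of NXT0072 was 1083 with a median of 7.74.

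In complex III the small subunit *Uqcr10* (151) and the core protein *Uqcrc1* (117.2) had the highest medians over all cells and *Uqcrb* the lowest, at its floor of 1.20. *Uqcrc1* ranked first of 8 in 3 groups but last in autopod NXT0072 (0.241), where *Uqcr10* ranked first (316). Complex IV was led by *Cox4i1*, a regulatory subunit, with 1319, which was the highest median of any member, followed by *Cox6a1* with 260. In autopod NXT0072 *Cox6a1* ranked first (380) and *Cox4i1* 5 of 12. Its lowest median was the 0.643 of *Cox5b*, again the floor. In complex V *Atp5a1* had 904 and *Atp5g3* 293 over all cells, although *Atp5g3* ranked 4 of 15 in autopod (339) and 6 in zeugopod (235), and *Atp5g1* was lowest at its floor of 0.203. For *Atp5a1* the group medians were 377 in autopod NXT0072 (0.318 to 19201), 1130 in autopod NXT0143 (0.318 to 16749), 1499 in zeugopod NXT0142 (0.953 to 13029) and 878 in zeugopod NXT0143 (0.318 to 9029). Reads were concentrated in a few members. The 10 with most reads (*Atp5a1*, *Atp5b*, *Cox4i1*, *Uqcrc1*, *Uqcrc2*, *Sdhb*, *Sdha*, *Atp5g3*, *Ndufb5* and *Atp5d*) held 46.2% of all reads on members, and 12 members held at least 50% of them.

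Several subunits exist as isoforms encoded by separate genes, some of them restricted to muscle, lung or testis in the adult. In each set most reads came from the widely expressed isoform. Shares are those of reads per kb summed over the cells of a tissue. *Cox4i1* made up 94.3% of the *Cox4* reads per kb in autopod and 97.6% in zeugopod cells, with the rest from *Cox4i2*, the isoform known from lung and low oxygen. *Cox6a1*, *Cox7b* and *Cox8a* each made up 100%, and the striated muscle isoforms *Cox6a2* and *Cox8b* and the testis isoform *Cox7b2* had no read in any of 199 cells. The upper 95% limit for a share of cells at 5 reads was 4.74% in autopod and 2.95% in zeugopod cells. *Cox6b2*, known from testis, supplied 13.8% and 20.8% of its set from 13 and 15 cells, the remainder being *Cox6b1*. By run its share was 11.9%, 36%, 17.3% and 25.2% in autopod NXT0072 and NXT0143 and zeugopod NXT0142 and NXT0143. These shares depend on the gene length used, which was 1.11 kb for *Cox6b2* against a principal transcript of 585 bases. In reads not divided by length, *Cox6b1* held only 74.1% of the set in autopod and 63.7% in zeugopod cells.

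*Cox7a1*, the isoform of heart and skeletal muscle, formed 22.9% of the *Cox7a* reads per kb in zeugopod and 0% in autopod cells. This share came from 4 zeugopod cells (3.25%, interval 0.893 to 8.12) with 34, 170, 323 and 644 reads. Each of the 4 cells had 0 of the 5 muscle markers (*Myod1*, *Myog*, *Pax7*, *Myf5*, *Actc1*) at 5 reads. They came 2 each from NXT0142 and NXT0143. *Cox7a2* supplied 91.2% and 69.1% of the set and *Cox7a2l*, which acts in supercomplex assembly, 8.82% and 7.98%. Of the genes for the identical mature c subunit of the ATP synthase ring, *Atp5g3* made up 98.4% in autopod and 98.5% in zeugopod cells, *Atp5g1* 1.18% and 1.08% and *Atp5g2* 0.437% and 0.446%. Counts of *Atp5g2* are uncertain, as 86.9% of its windows occur elsewhere. *Ndufa4*, named as a complex I gene but known to act with complex IV, made up 99.1% and 98.7% against its low-oxygen relative *Ndufa4l2*.

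For the comparison of autopod with zeugopod, members were kept if 5 reads or more were found in at least 25% of autopod or of zeugopod cells. This left 72 of 88 members (81.8%, against 44.7% of all genes). The 16 that did not pass were *Cox5b*, *Ndufa4l2*, *Atp5h*, *Uqcrb*, *Atp5g2*, *Ndufb4*, *Cox4i2*, *Cox6b2*, *Atp5s*, *Atp5sl*, *Atp5k-ps2*, *Ndufaf1*, *Ndufaf3*, *Ndufaf5*, *Ndufaf6* and *Ndufaf7*. Differences are those of the mean of log2(value + 1) over cells, autopod minus zeugopod, on a scale that understates differences of low genes. A difference of 1 or more is counted, and since there is no replicate it is a description of these cells.

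Against other genes, the set stood differently in the pooled cells and within the run that held both tissues. With all cells pooled, 3 of 72 members (4.17%) were higher in autopod by 1 or more and 11 (15.3%) were lower, where 6.06% and 13.4% of all 4898 genes were. The median difference was −0.05 over members and −0.12 over all genes. Complex I had 2 higher and 6 lower of 36, complex II 0 and 1 of 4, complex III 1 and 1 of 7, complex IV 0 and 1 of 9 and complex V 0 and 2 of 13. The tissues could also be compared within NXT0143, the only run with both, and between NXT0072 and NXT0142, where tissue and run cannot be told apart. Only 37 of 72 members (51.4%) had the same sign in these separate comparisons, the same share as over all genes (51.4%). Within NXT0143, 2 members (2.78%, background 18.4%) were higher and 9 (12.5%, background 9.21%) lower in autopod by 1 or more, with a median difference of −0.41 over members and 0.18 over all genes. Between the other runs 5 (6.94%, background 6.64%) were higher and 17 (23.6%, background 24.3%) lower, with medians of −0.22 and −0.34. By these medians, taken without regard to transcript length, the members lay under other genes in autopod within NXT0143. In the pooled cells and between the other runs their medians did not. A pooled difference of 1 or more with the same sign in both comparisons was found for 10 members (13.9%, background 14.3%).

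Among members lower in autopod with the same sign in both run comparisons, *Uqcrc1*, a core protein of complex III, had the largest difference, −2.39. Its median value was 0.241, the floor, in autopod NXT0072 (highest 14301), 290 in autopod NXT0143 (0.241 to 4111), 194 in zeugopod NXT0142 (0.241 to 3600) and 256 in zeugopod NXT0143 (0.241 to 3133). The autopod cells of NXT0072 alone stood low, and within NXT0143 the difference was −0.48. *Ndufb10*, an accessory subunit of complex I, differed by −2.22 (−1.10 within NXT0143, −2.91 between the other runs), with medians of 0.819, 19.7, 246 and 135 in autopod NXT0072, autopod NXT0143, zeugopod NXT0142 and zeugopod NXT0143. Here both autopod groups lay under both zeugopod groups in their medians, with overlapping ranges of cells.

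The next 3 were *Sdhb*, *Ndufa5* and *Ndufa10*. *Sdhb* differed by −1.63 pooled, −0.68 within NXT0143 and −2.16 between the other runs. For *Ndufa5*, an accessory subunit of the peripheral arm of complex I, the values were −1.61, −1.39 and −1.87, and its medians were 8.67 and 12.5 in the autopod groups and 136 and 125.2 in the zeugopod groups. *Ndufa10* gave −1.57, −1.35 and −1.64, with medians of 2.69 and 0.898 against 94.9 and 73.9. *Ndufb10*, *Ndufa5* and *Ndufa10* were lower by more than 1 in both run comparisons. So was *Ndufs8*, an iron-sulfur subunit named after its values were seen, with −1.50, −1.47 and −1.62.

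In the other direction *Ndufc2* and *Ndufa6*, both accessory subunits of complex I, were higher in autopod. *Ndufc2* differed by 1.70 pooled, 0.93 within NXT0143 and 1.57 between the other runs, with medians of 326 and 274 in autopod and 142 and 104.2 in zeugopod cells. *Ndufa6* differed by 1.54, 0.86 and 1.34, with medians of 1791 in autopod NXT0072 (1.77 to 11856), 647 in autopod NXT0143 (1.77 to 3294), 715 in zeugopod NXT0142 (1.77 to 6681) and 266 in zeugopod NXT0143 (1.77 to 2722). The medians of autopod NXT0143 and zeugopod NXT0142 were reversed for *Ndufa6*, so its order holds only run by run. *Ndufa12* (0.79, 0.31 and 0.82), *Cox7c* (0.70, 0.70 and 0.41) and *Cox8a* (0.66, 0.31 and 0.67) came next and stayed under 1.

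The member with the largest pooled difference turned its direction with the run. *Cox4i1* differed by −2.57 in the pooled cells and by −3.67 between NXT0072 and NXT0142, but by 0.25 within NXT0143. Its medians were 121.3 in autopod NXT0072 (0.713 to 15845), 1290 in autopod NXT0143 (0.713 to 4165), 1975 in zeugopod NXT0142 (0.713 to 7378) and 1319 in zeugopod NXT0143 (0.713 to 4113). The autopod cells of NXT0143 lay with the zeugopod cells, and those of NXT0072 spread from the floor to the highest values of all. *Ndufa9* (−1.45 pooled, 0.23 within NXT0143), *Atp5d*, the delta subunit of the ATP synthase (−1.44 and 0.34), and *Uqcrh*, the hinge protein of complex III (1.20 and −0.31), changed sign likewise. *Ndufv1*, the subunit that binds NADH, was near 0 when pooled (−0.34) but 2.52 within NXT0143 and −2.07 between the other runs. These 5 were named after their values were seen.

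**Figure D3:**
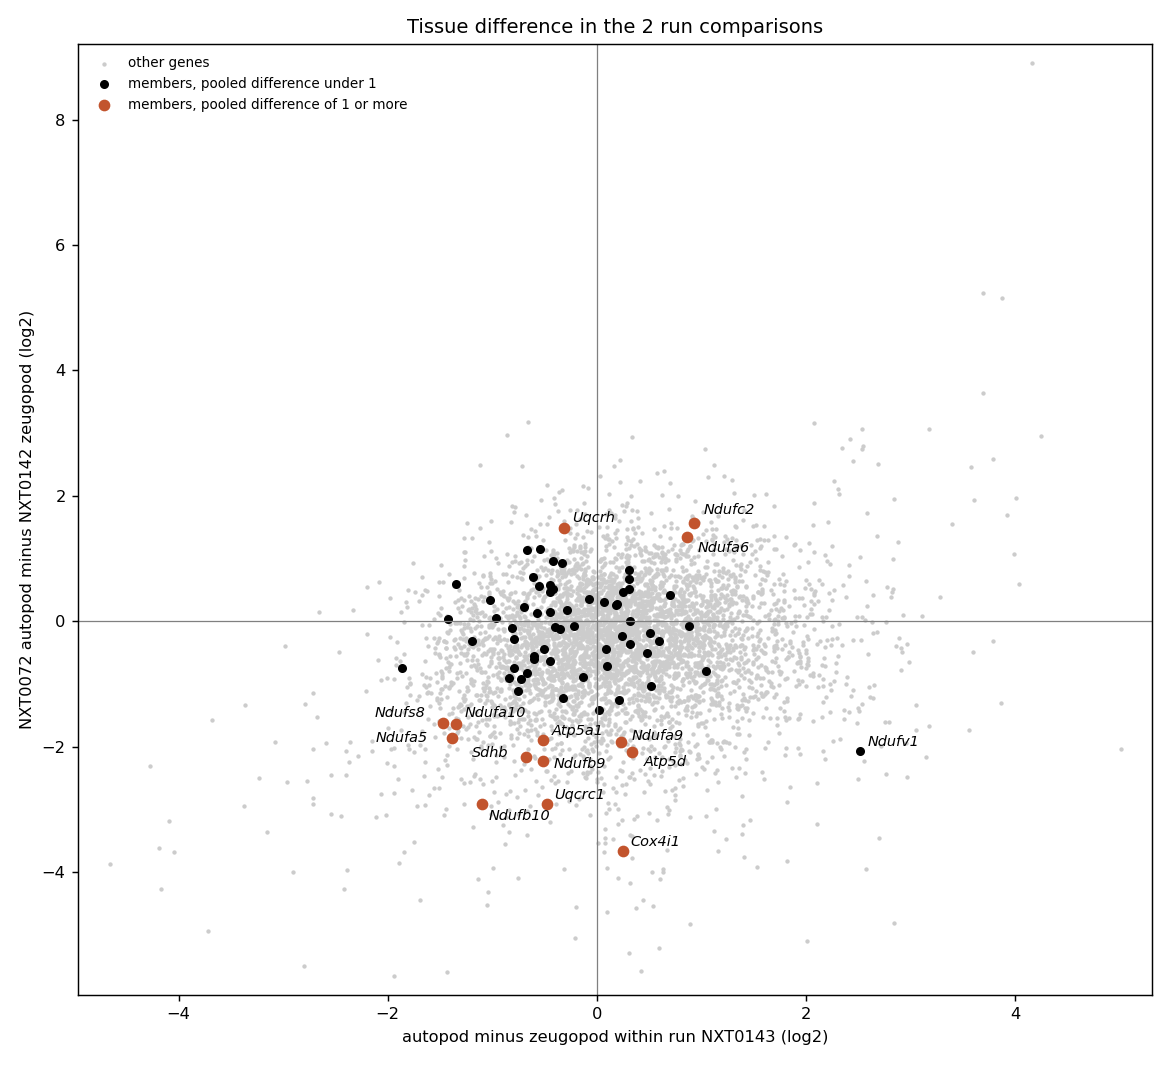
Difference of mean log2(value + 1), autopod minus zeugopod, within run NXT0143 (x axis) and between the autopod cells of NXT0072 and the zeugopod cells of NXT0142 (y axis). Grey points are the other genes that passed the filter, black points members with a pooled difference under 1, and orange points the 14 members at 1 or more. *Cox4i1* lies low at 0.25 and −3.67, *Ndufv1* at 2.52 and −2.07, and *Ndufa5* and *Ndufa10* at −1.39 and −1.35 on the x axis with −1.87 and −1.64 on the y axis.

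Cells of 1 tissue also differed between runs. In 50 of 72 members (69.4%, against 55.5% of all genes) the autopod cells of NXT0143 lay nearer in their mean to the zeugopod cells of the same run than to the autopod cells of NXT0072. This held for 9 of the 14 members with a pooled difference of 1 or more (*Atp5a1*, *Atp5d*, *Cox4i1*, *Ndufa6*, *Ndufa9*, *Ndufc2*, *Sdhb*, *Uqcrc1* and *Uqcrh*). The share among all genes with such a pooled difference was not computed, and the 14 were chosen on differences that use the same cells. No result about these 14 is read from this count. Between the autopod runs, 23 members (31.9%, background 11.8%) were lower and 8 (11.1%, background 22.2%) were higher in NXT0143 by 1 or more. Between the zeugopod runs 10 members (13.9%, background 15.1%) were lower in NXT0143 and 0 were higher (background 1.10%).

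The run difference in autopod cells went with transcript length. Many respiratory subunits are small proteins with short messages, and members were divided by the length of the principal transcript into 25 of 371 to 680 bases, 23 of 683 to 1231 and 24 of 1249 to 4715. Autopod cells of NXT0143 minus those of NXT0072 gave medians of −1.24, −0.12 and −0.10 for short, middle and long members, and −0.68, −0.11 and 0.19 for all genes in the same length ranges. Among the short members 13 of 25 were lower by 1 or more and 0 were higher, where 32.8% of all genes of this length were lower and 6.40% higher. *Ndufa7* (−2.40), *Uqcrh* (−2.17), *Cox6b1* (−2.16), *Uqcr10* (−2.15) and *Ndufa1* (−2.07) were the lowest, and *Cox4i1* (3.18), *Uqcrc1* (2.50), *Ndufv1* (2.28), *Ndufa9* (2.20) and *Atp5d* (2.08) the highest members, all named after their values were seen. Across the 72 members the rank correlation of this difference with length was 0.43, and 0.11 across 4895 genes. In zeugopod cells NXT0143 minus NXT0142 gave −0.58, −0.55 and −0.44, with a correlation of 0.06.

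**Figure D4:**
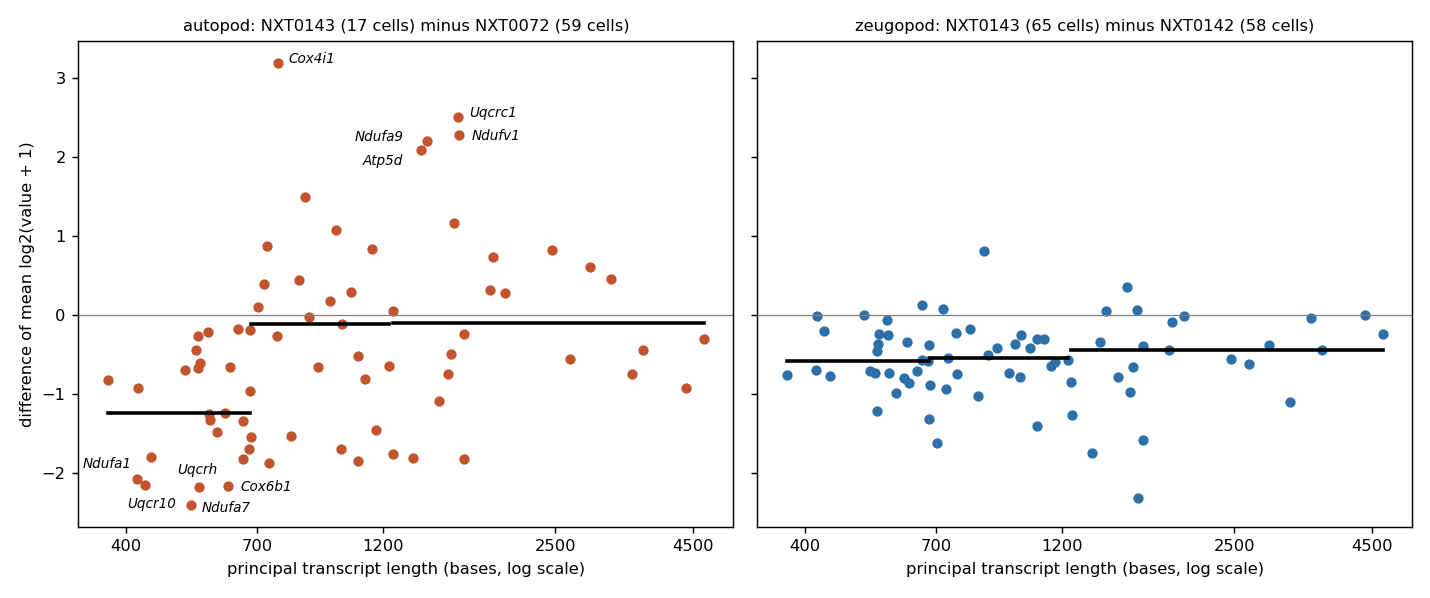
Difference of mean log2(value + 1) between runs of 1 tissue for the 72 members (y axis) against principal transcript length (x axis, bases, log scale), for autopod cells on the left and zeugopod cells on the right. Black bars are the medians of the short, middle and long members. In autopod cells the short members have a median of −1.24 and the long ones −0.10, and in zeugopod cells all 3 medians lie between −0.58 and −0.44.

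The pooled tissue difference also varied with length, in the opposite direction. The 59 autopod cells of NXT0072, most of the 76 pooled autopod cells, were subtracted in the run difference but added here. The opposite directions are therefore not separate observations. Of the 25 short members 2 were higher and 0 lower in autopod (9.60% and 5.6% of all short genes), of the 23 middle ones 1 and 6 (6.51% and 16% of genes), and of the 24 long ones 0 and 5 (5.89% and 13.3% of genes), with a rank correlation of −0.39 with length over the members and 0.05 over all genes. Within NXT0143 the correlation was 0.07 over members and 0.15 over all genes. There the short, middle and long members had median differences of −0.45, 0.02 and −0.38. All genes of these lengths had −0.16, −0.14 and 0.22, so the middle members did not lie under other genes. The part of transcript length in these differences was not tested.

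The share of all reads that fell on the 88 members overlapped between the tissues. Over cells its median was 1.35% in autopod (0.177 to 3.07%) and 1.26% in zeugopod (0.162 to 2.71%). By run the medians were 1.44% in autopod NXT0072, 1.15% in autopod NXT0143, 1.25% in zeugopod NXT0142 and 1.27% in zeugopod NXT0143, so that the autopod groups lay on both sides of the zeugopod groups. Complex I had medians of 0.625%, 0.319%, 0.441% and 0.483% in the same order, and complex V 0.379%, 0.308%, 0.333% and 0.363%. In reads summed over the cells of autopod NXT0143, complex V (0.444%) exceeded complex I (0.369%). Complexes II, III and IV had medians between 0.0728% and 0.157% in each group. The rank correlations of the share with the reads of the cell were −0.12, −0.02, 0.18 and 0.37 over the 59, 17, 58 and 65 cells, a description since cells share embryos and libraries.

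Cells with chondrogenic markers had lower shares in each group. Their medians were 1.27% against 1.47% for the other cells in autopod NXT0072, 1.04% against 1.15% in autopod NXT0143, 1.22% against 1.25% in zeugopod NXT0142 and 1.04% against 1.34% in zeugopod NXT0143. Cells with cell cycle markers had higher shares in each group, 1.65% against 1.39%, 1.30% against 1.15% (only 2 cycling cells), 1.35% against 1.21% and 1.45% against 1.27%. The summed CPM of the same cell cycle markers, however, had rank correlations with the share of 0.13, −0.15, 0.02 and −0.09, and that of the chondrogenic markers −0.40, −0.34, −0.14 and −0.12. The 17 tendon-marked zeugopod cells had a median of 1.26%, against 1.27% for the other zeugopod cells. The ranges of marked and other cells overlapped throughout. A share of reads also depends on the other RNA of the cell, and fewer transcripts of the members cannot be told apart from more of other genes.

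**Figure D5:**
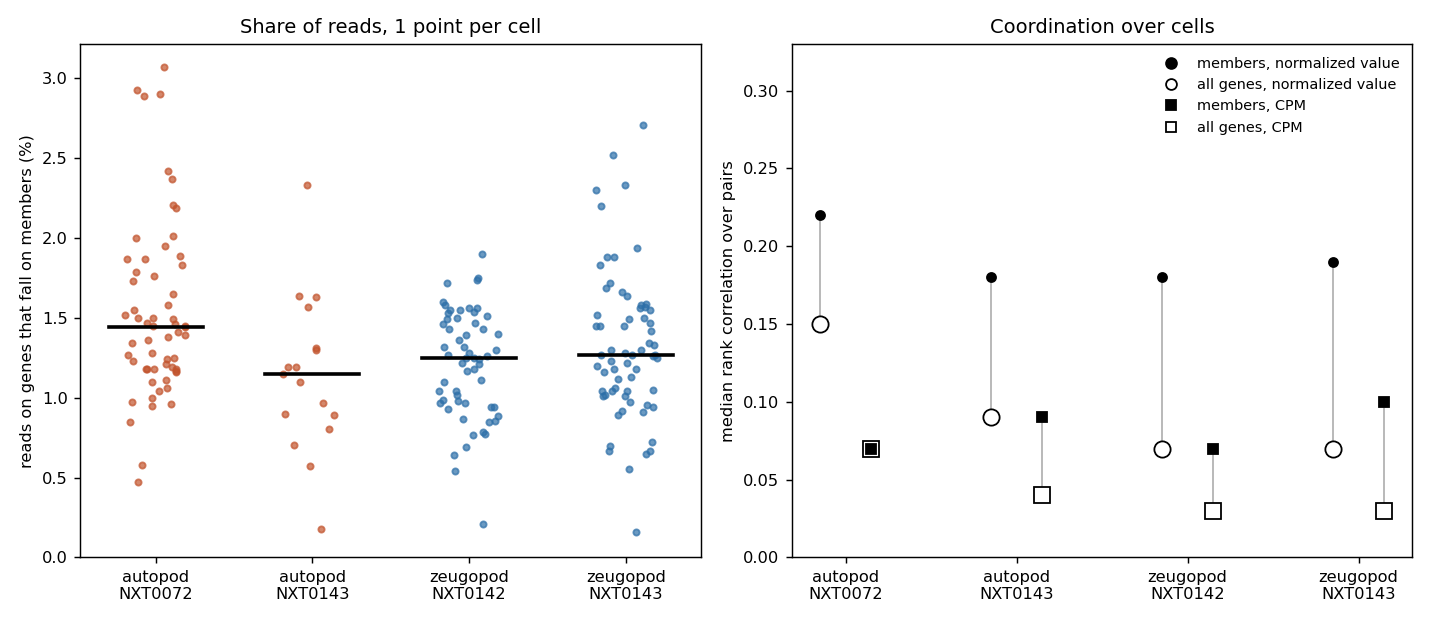
Left, percent of a cell's reads on genes that fall on the 88 members, with 1 point per cell and the median as a bar, by tissue and run. Right, median rank correlation over pairs of the 72 members (filled) and over all pairs of 4898 genes (open), on the normalized value (circles) and on CPM (squares). The read shares have medians between 1.15% and 1.44%, and on the normalized value the members lie above all genes in each group (0.18 to 0.22 against 0.07 to 0.15).

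Members varied together across cells slightly more than other genes did. The median Spearman correlation of log2(value + 1) over the 2556 pairs of 72 members was 0.21 across 76 autopod cells and 0.19 across zeugopod cells, and it was 0.14 and 0.07 over all pairs of 4898 genes. It was above 0 in 96.2% and 96.3% of member pairs. The normalized value rises and falls for all genes of a cell with its size factor. On CPM, each count scaled to 1000000 reads in the cell, the medians were 0.08 and 0.09 for members and 0.06 and 0.03 for all pairs, and in autopod NXT0072 members and all pairs both had 0.07. Given the number of genes detected in the cell, the partial correlation was 0.07 in both tissues, against 0.02 and 0.01 over all pairs. Widely read genes were compared separately. Among genes with 5 reads in at least 75% of cells of both tissues, 18 members had 0.28 in autopod and 0.29 in zeugopod cells, where all 280 such genes had 0.30 and 0.23. On CPM the same 18 members had 0.12 and 0.12 and the 280 genes 0.03 and 0.04.

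Taken over all complexes, pairs within a complex were about as close as pairs between complexes. Medians were 0.21 over 771 pairs within and 0.22 over 1575 pairs between complexes in autopod cells, and 0.20 and 0.20 in zeugopod cells. On CPM they were 0.08 and 0.08, and 0.09 and 0.09. Of the 771 pairs within complexes 630 belong to complex I. The 36 pairs of complex IV had medians of 0.27 in autopod and 0.26 in zeugopod cells, and 0.17 and 0.09 on CPM. The 78 pairs of complex V had 0.26 and 0.24, and 0.08 and 0.10 on CPM. The 21 pairs of complex III had 0.20 and 0.11 and the 6 pairs of complex II 0.20 and 0.12. On CPM by run, complex IV pairs had 0.16, 0.15, 0.11 and 0.12, where pairs between complexes had 0.07, 0.10, 0.07 and 0.10. The summed CPM of whole complexes also showed low coefficients, from −0.18 to 0.44 over all pairs of complexes in the 4 groups.

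By their median over the 4 groups, the 3 closest pairs joined different complexes. *Uqcrq*, a small subunit of complex III, and *Atp5k*, the e subunit of the ATP synthase, had 0.54 (0.55, 0.65, 0.18 and 0.52 in autopod NXT0072 and NXT0143 and zeugopod NXT0142 and NXT0143). *Atp5b* and *Uqcrc1* had 0.50 (0.70, 0.70, 0.30 and 0.20), and *Atp5e* and *Ndufa4* had 0.50 (0.30, 0.50, 0.49 and 0.53). On CPM the first pair ranged from −0.07 to 0.40, the second from −0.03 to 0.63 and the third from −0.02 to 0.33, so none of these 3 kept a positive coefficient in all 4 groups. The next 3 pairs, named after their values were seen, did, *Ndufa12* with *Ndufs6* (0.07 to 0.43), *Atp5j* with *Ndufa4* (0.16 to 0.49) and *Uqcr10* with *Cox8a* (0.17 to 0.53). With 2556 pairs the highest coefficients are extremes by selection. The members with the lowest median coefficient with the others were *Ndufb2* (0.08), *Uqcrc2* (0.09) and *Cox7a2l* (0.11).

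The genes outside the set whose CPM followed that of the members most closely, by the lowest of their 4 group coefficients, were *Tcf3*, *Tomm6*, *Tceb2*, *Sepw1*, *Yars*, *Cacna2d1*, *Smarcb1*, *Dnajc19*, *Ifitm2* and *Mrps11*. *Tcf3* had 0.25, 0.28, 0.34 and 0.26 over 59, 17, 58 and 65 cells, and *Tomm6*, a subunit of the outer-membrane import pore, had 0.23, 0.43, 0.22 and 0.45. *Dnajc19* of the import motor (0.18 to 0.41) and *Mrps11* of the mitochondrial ribosome (0.18 to 0.29) are also mitochondrial. The share of mitochondrial genes among all genes compared was not measured, so no mitochondrial theme is read from this list. The median over 4812 genes lay between 0.01 and 0.07 in each group, and single genes reached 0.53 to 0.82, so these are modest coefficients. The listed genes were chosen by their lowest coefficient, so a positive value in each group follows from the choice.

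Promoters of the closest pairs are shown because their genes varied together most closely. Promoters from RefSeq (GRCm38.p6), 250 bases before to 50 after the start, were matched for 73 of 88 members. The motifs searched on both strands, at any overlap, were GCGCANGCG (NRF1), CCGGAAG (ETS), AAGGTCA (ERR) and AAGATGGCG (YY1), the binding letters of factors known to act on respiratory genes. NRF1 letters were in 28.8% of member promoters and 8.83% of 17492 protein-coding promoters, ETS letters in 21.9% and 11.9%, ERR letters in 11% and 4.08% and YY1 letters in 9.59% and 1.94%. At least 1 of the 4 was in 38 of 73 member promoters (52.1%) and in 23.7% of protein-coding promoters. Of the genes in the 3 closest pairs with a listed promoter, *Uqcrc1*, *Atp5k* and *Atp5e* hold such letters, shown in capitals, and *Atp5b* and *Ndufa4* hold none in this window.
*Uqcrc1*, chr9:108936398-108936697, + strand: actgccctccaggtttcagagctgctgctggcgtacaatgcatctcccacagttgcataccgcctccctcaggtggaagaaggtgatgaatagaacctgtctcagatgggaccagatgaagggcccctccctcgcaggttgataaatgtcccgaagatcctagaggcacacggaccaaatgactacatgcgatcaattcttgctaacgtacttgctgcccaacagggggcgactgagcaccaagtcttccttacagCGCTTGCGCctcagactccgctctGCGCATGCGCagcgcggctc
*Atp5k*, chr5:108434350-108434649, - strand: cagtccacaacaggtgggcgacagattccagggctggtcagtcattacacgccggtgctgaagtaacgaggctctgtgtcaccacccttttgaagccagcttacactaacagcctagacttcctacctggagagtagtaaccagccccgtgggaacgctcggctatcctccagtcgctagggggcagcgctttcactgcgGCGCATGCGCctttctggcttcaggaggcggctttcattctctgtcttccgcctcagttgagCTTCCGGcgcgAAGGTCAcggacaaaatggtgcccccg
*Atp5e*, chr2:174464052-174464351, - strand: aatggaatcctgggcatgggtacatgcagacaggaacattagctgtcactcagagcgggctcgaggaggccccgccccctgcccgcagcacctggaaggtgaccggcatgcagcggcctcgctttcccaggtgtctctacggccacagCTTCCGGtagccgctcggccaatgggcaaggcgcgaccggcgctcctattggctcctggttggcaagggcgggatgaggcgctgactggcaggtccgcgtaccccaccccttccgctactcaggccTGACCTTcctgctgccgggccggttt
In *Uqcrc1* the capitals mark NRF1 letters, and the palindromic stretch matches on both strands. In *Atp5k* they mark NRF1, ETS and ERR letters in this order, and in *Atp5e* ETS and ERR letters on the reverse strand. Of the 3 pairs, *Atp5b* with *Uqcrc1* and *Atp5e* with *Ndufa4* each joined a promoter with such letters to one without. A match of letters is not evidence of binding.

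Lists of genes around the respiratory chain were compared in the same way, beside the background of 6.06% of genes higher and 13.4% lower. Their median differences within NXT0143 were 0.46 for carriers, 0.10 for assembly factors, 0.24 for regulators, 0.30 for the Krebs cycle and 0.60 for glycolysis. There the members had −0.41 and all genes 0.18. Between the other runs the lists had −0.60, 0.01, 0.21, −0.64 and −0.42 in the same order, the members −0.22 and all genes −0.34. Among carriers of electrons, ATP and phosphate, 7 of 8 passed the filter, and 1 was higher and 1 lower in autopod by 1 or more. These were *Atpif1*, the inhibitor of the ATP synthase (1.37 pooled, −0.37 within NXT0143 and 1.75 between the other runs), and *Slc25a4*, an ADP/ATP carrier (−1.66, 0.46 and −2.43), so neither kept its sign. Of 29 assembly factors of the chain, 12 passed, with *Cox14* higher (1.20, 0.68 and 0.98) and *Timmdc1*, a complex I assembly factor, lower (−1.92, 0.06 and −2.73). Of 10 transcriptional regulators 3 passed, and *Yy1* was higher (1.07, 0.46 and 1.14). *Yy1* had 5 reads in only 22.1% of all cells, so it passed the filter through a single tissue, and its median was 0.344 in both tissues. None of the 14 tested Krebs cycle genes differed by 1. Of 15 glycolytic genes 11 passed, and *Ldha*, which makes lactate from pyruvate, was higher in autopod (1.15, 1.56 and 1.31), with the same sign in both runs. The summed CPM of the Krebs cycle genes correlated with that of the members by −0.13, 0.48, −0.01 and 0.07, and that of glycolysis by −0.07, 0.23, −0.16 and 0.12 in autopod NXT0072 and NXT0143 and zeugopod NXT0142 and NXT0143.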

How the data were processed

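Single-cell RNA-seq libraries (Fluidigm C1, SMARTer and Nextera XT) were mapped by the authors to mm10 with bowtie2 in local mode, and only uniquely mapped reads of 75 bases were kept. The deposited counts are unscaled read numbers for 23165 genes in 225 cells. They also deposited a normalized signal for 10948 genes in 199 cells that passed their quality filter. In the deposited signal, 98.57% of values lay within 0.1% of (whole part of count / size factor, plus 1) / gene length in kb. The size factors and gene lengths were themselves inferred from these values by this formula, so the agreement was largely set in advance. The 92 spike-in rows were left out here, and spike-in counts were not used.

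Cells were grouped by tissue and run per the labels. From the counts, shares of reads, CPM and shares of cells with at least 5 reads were computed, with exact Clopper-Pearson 95% intervals. From the signal, differences of mean log2(value + 1) were computed for the 4898 genes found at 5 reads or more in at least 25% of autopod or of zeugopod cells. Spearman correlations were computed over cells. With 1 pooled sample per tissue no test was run. No doublet caller was run. Depth per retained cell was 186271 to 9437447 reads. Reads carry no molecular identifiers, and intervals cover counting error only.

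Transcripts came from the GENCODE annotation of GRCm38, and a window of 75 bases was called identical when it recurred in a transcript of a gene elsewhere on either strand. Python 3.11.15, numpy 2.4.6, pandas 2.3.3 and scipy 1.17.1 were used, and the calculations were tested on simulated data. The members and gene lists were chosen with earlier results of these data known. Named genes were, in each complex, the 2 highest and the 1 lowest by median value, the 5 largest tissue differences in each direction with the same sign in both run comparisons, all isoforms, the 5 members in fewest cells, the 3 closest pairs and 3 lowest members by correlation, the 10 genes most like the members, and listed related genes at a difference of 1 or more. Alternatives comprised another read minimum, thinning to 500000 reads (seed 42), CPM, pseudocounts of 0.1 and 10, no filter, each run alone, other summaries and partial correlations.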

Additional observations from a re-analysis of the deposited data

Results flagged for a closer look

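Cells outside the retained set also held reads on the members. The 26 cells that the authors left out of the normalized table had between 17 and 2926028 reads on genes. Of their 4703929 reads, 76693 (1.63%) fell on the members, and 24 of the 26 cells had at least 1. A single autopod cell of NXT0143, with 2926028 reads, held 63415 of these member reads (2.17% of its own reads), and without it 13278 of 1777901 reads (0.747%) fell on the members. The median cell held 0.5 members at 5 reads or more, and the highest 26.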

How the results depend on the processing

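No paired analysis was possible because the labels give no replicate numbers and tie no cell to an embryo. A count or share was taken as moved when it changed by more than 1.5 times, and a log2 difference when it changed by more than 0.58. Under the alternatives 27 values of the main results moved and the others stayed within this. Of the values of single genes, 87 stayed, 21 moved and 4 turned direction. Members higher in autopod numbered 3, but 5 between NXT0072 and NXT0142 and 7 as a difference of medians, and those lower numbered 11, but 17 and 29. By the difference of medians, larger shares of members than of all genes were lower and were higher in autopod. Between NXT0072 and NXT0142 the shares of members lay close to those of all genes. Within NXT0143 alone *Atp5d* (0.34), *Uqcrh* (−0.31), *Ndufa9* (0.23) and *Cox4i1* (0.25) turned direction. Per kb, the members' share was 2.88% in autopod and 2.63% in zeugopod cells. On CPM the coordination was 0.08 and 0.09 over members, within complexes and between complexes alike. On thinned CPM it was 0.06 and 0.07. Given the genes detected it was 0.07 and 0.07 over members, 0.07 and 0.08 within and 0.08 and 0.08 between complexes. Of alternatives chosen after seeing the data, widely detected genes gave 0.29 in zeugopod cells, and 0.12 and 0.12 on CPM, and CPM given the genes detected gave 0.05 and 0.05. Of the 10 highest members, 6 were kept in autopod within NXT0143, and 6 in zeugopod with CPM per kb of the principal transcript (also chosen after seeing the data). The cause was not tested.

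The main limit is the design. With embryos pooled, 1 run for both tissues and 17 autopod cells in it, a tissue difference in NXT0072 and NXT0142 cannot be told apart from a run difference. Members at the floor in most cells have medians set by gene length. Reads of near-identical copies are uncertain. A normalized value under about 1 read per size factor is at the floor, which held for 3.98% of the member counts above 0.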
